A study of Mus musculus with 4 samples.

Results

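*Etl4*, *Ralgapa1*, *Sbf1* and *Ubap2l* each carry a cassette exon, an exon that is either included in the mRNA or skipped, whose inclusion differed widely between control and *Qk cKO* mouse cortex. For *Ubap2l* this held only with skipping counted to the more distant of its alternative last exons. Each of the 4 has a close paralog, *Srcin1*, *Ralgapa2*, *Sbf2* and *Ubap2* respectively. These 8 genes, of 23038 genes in the files, hold 42 of the 38240 alternative splicing events that were quantified, 31 of them in the first 4 genes and 11 in the paralogs. The 4 genes were selected on the inclusion difference itself, so this difference and every other event of these 4 genes are given as a description without a test. The paralogs were taken for their homology. Their splicing, and the mRNA level of all 8 genes, were not used in the choice and were tested.

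All embryos were at stage E14.5, and the tissue was cortex. The 2 control samples came from *Qk* fl/fl embryos, named wild type in the labels, and the 2 *Qk cKO* samples from *Nestin*-cre:*Qk* fl/fl littermates, so both groups carry the floxed *Qk* alleles. Cre from the *Nestin* promoter acts in neural progenitor cells and their progeny, and cells of other origin in the tissue keep *Qk*. Strain and sex were not given in the sources used here, and the labels call the replicates independent. No separate control carrying Cre without floxed alleles was analysed here.

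Genes were covered by 37942046 to 42994832 tags per sample, a tag being the unit that the quantification program Quantas counts. Tags on the junction of *Qk* exons 2 and 3, exon 2 being the deleted exon, were 111% and 129% of those on the junction of exons 3 and 4 in the controls. They were 7.02% and 8.19% in *Qk cKO*, as the labels imply. Marker genes of cortical progenitors and neurons were present in every sample. Of 7 radial glia markers, 2 were called lower in *Qk cKO* by edgeR (*Fabp7* and *Slc1a3*), and their summed level was 1502 to 1622 RPKM (tags scaled by exon length and by the tags of the library) in control against 1255 to 1318 in *Qk cKO*. Without *Fabp7*, the sum over the other 6 was 633 and 601 RPKM in control and 615 and 589 in *Qk cKO*, and the groups overlapped. That sum was mostly *Vim*, at 444 to 481 RPKM. *Sox2*, *Hes5* and *Slc1a3* were each lower in both *Qk cKO* samples than in both controls. *Pax6* was higher in both, and *Nes* and *Vim* overlapped. Of the 7 radial glia markers, 3 had an unadjusted p below 0.05 by edgeR. Of 7 hypothalamic and diencephalic markers, 6 were called lower by edgeR and 0 by DESeq2. Their summed level was 4.73 and 10.2 RPKM in the 2 controls against 2.48 and 1.80 in the 2 *Qk cKO* samples. All 7 were above 0 in every sample. The paper lists all 7 among the genes whose level changed in these same libraries. Their calls and sum are therefore a description and not a test of such markers in general. No listed marker of intermediate progenitors, neurons, interneurons, microglia, endothelium, blood, meninges or choroid plexus was called by edgeR or DESeq2, while an unadjusted p below 0.05 by edgeR was given to 1 of 6 neuronal, 2 of 6 interneuron, 1 of 2 blood and 3 of 4 meningeal markers, against 8.76% of all genes tested. The part of these differences in the results for the 8 genes was not tested, and values without control 2, in which the diencephalic markers were highest, are given beside the main results. In bulk tissue, fewer cells of a type and less RNA per cell cannot be told apart.

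*Qk* encodes the Quaking RNA-binding proteins, whose nuclear isoform binds pre-mRNA and controls the inclusion of nearby exons. *Etl4*, also called *Skt*, encodes a coiled-coil protein required for normal development of the intervertebral discs, and its paralog *Srcin1* encodes p140Cap, a synaptic and cytoskeletal adaptor that restrains the kinase Src. *Ralgapa1* and *Ralgapa2* encode the alternative catalytic subunits of the RalGAP complex, which inactivates the small GTPases RalA and RalB. *Sbf1* and *Sbf2*, also called *Mtmr5* and *Mtmr13*, encode catalytically inactive members of the myotubularin family of lipid phosphatases, and mutations in either gene cause inherited peripheral neuropathy. *Ubap2l* and *Ubap2* encode ubiquitin-associated domain proteins, of which Ubap2l is needed for stress granule assembly.

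By global alignment of the annotated proteins (GENCODE M21, genome GRCm38, the same assembly as mm10), the paralogs differed in how alike they are. Sbf1 and Sbf2 were identical at 59.7% of 1851 aligned residues, Ralgapa1 and Ralgapa2 at 54.2% of 1921, Ubap2l and Ubap2 at 49.8% of 1052, and Etl4 and Srcin1 at 42.8% of 1081. All coordinates below are those of mm10. The annotation places the alternative exons of *Etl4*, *Sbf1*, *Ubap2l* and *Sbf2* wholly in coding sequence. Of the *Ralgapa1* exon, 5 of 31 bases are coding, followed by the stop codon.

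Exon 17 of *Etl4* was mostly included in control and mostly skipped in *Qk cKO*. The exon spans chr2:20801542-20801661 on the plus strand, is 120 nt long, encodes 40 residues and keeps the reading frame. Exon numbers follow the annotated transcript of 19 exons. It is shown here because it has the largest difference among the 4 genes. The exon is in capitals, and 15 bases of the exon on each side are in lower case:
Etl4 exon 17: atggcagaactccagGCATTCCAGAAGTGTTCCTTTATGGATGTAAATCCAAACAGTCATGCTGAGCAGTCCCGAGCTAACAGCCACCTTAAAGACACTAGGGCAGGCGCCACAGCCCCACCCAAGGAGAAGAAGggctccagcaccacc

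Inclusion, taken as the mean of the 2 inclusion junctions over that mean plus the skipping junction, was 69.7% (95% Wilson interval 55.9 to 80.7%) and 60.4% (46.6 to 72.7%) in the 2 controls. In the 2 *Qk cKO* samples it was 18.2% (10.3 to 30.3%) and 10.01% (4.53 to 20.7%). Both *Qk cKO* samples lay below both controls. The gene was chosen by this difference, so the separation is a description and not a test. The intervals cover counting error only. ΔI, control inclusion less *Qk cKO* inclusion with tags summed over the replicates, was 0.509, and it was 0.556 without control 2. The tags behind it were few, since the controls had 15 and 20 skipping tags and the *Qk cKO* samples 45.8 and 49.9, while the junction of exons 16 and 17 had 40 and 38 tags against 13.2 and 6.05. Tags need not be whole, since Quantas assigns a fragment by its estimated probability. Skipping was thus higher where inclusion was lower.

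**Figure D1:**
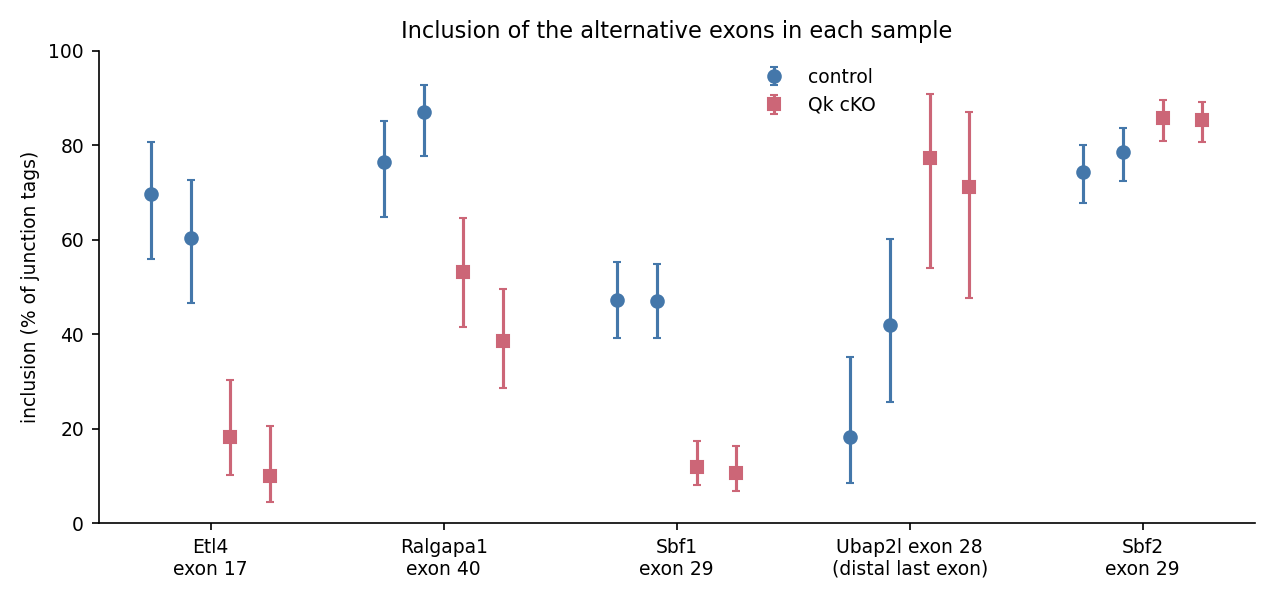
Inclusion of the 4 alternative exons that chose the genes and of *Sbf2* exon 29 in each sample, in percent of junction tags, with 95% Wilson intervals as bars. Circles are the 2 control samples and squares the 2 *Qk cKO* samples. Inclusion was lower in *Qk cKO* for the first 3 exons and higher for *Sbf2* exon 29. For *Ubap2l* exon 28 it was higher with skipping counted to the distal last exon, while over both last exons the groups overlapped.

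2 further exons lie between exons 17 and 18 of *Etl4*, one of 78 nt (chr2:20805585-20805662) and one of 1599 nt (chr2:20805775-20807373). As a set of 3, these and exon 17 were skipped together more often in *Qk cKO*, with inclusion of 62.0% and 52.9% in control and 19.8% and 17.4% in *Qk cKO* (ΔI 0.388). Skipping of the set is counted on the junction of exons 16 and 18, the same tags as for exon 17 alone. It is therefore not a separate result. Its inclusion averages junctions that need not lie on the same mRNA. The pair without exon 17 went the other way, at 40% and 43.0% in control and 59.7% and 70.4% in *Qk cKO* (ΔI -0.235). Skipping of the pair is counted on the junction of exons 17 and 18, which itself needs exon 17. That junction had 29 and 23 tags in control and 7.20 and 5.05 in *Qk cKO*.

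Tags on the counted junctions of the pair were not more numerous in *Qk cKO*. Entry into the 78-nt exon was counted from exon 17 only. The junction from exon 17 to the 78-nt exon had 8 and 6 tags in control and 2 in each *Qk cKO* sample. The junction between the 78-nt and 1599-nt exons had 34 and 28 tags in control and 15 and 23 in *Qk cKO*, and that from the 1599-nt exon to exon 18 had 16 and 18 against 15 and 11. Of the tags leaving exon 17, those into the 78-nt exon were 21.6% and 20.7% in control and 21.7% and 28.4% in *Qk cKO*, with intervals that all overlapped. The opposite sign of the pair came with fewer tags on the junction of exons 17 and 18, by which its skipping is counted. The remaining 2 tested *Etl4* events, at an earlier cassette exon and an alternative 5′ splice site, had ΔI of -0.00814 and 0.0629, with overlapping groups.

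**Figure D2:**
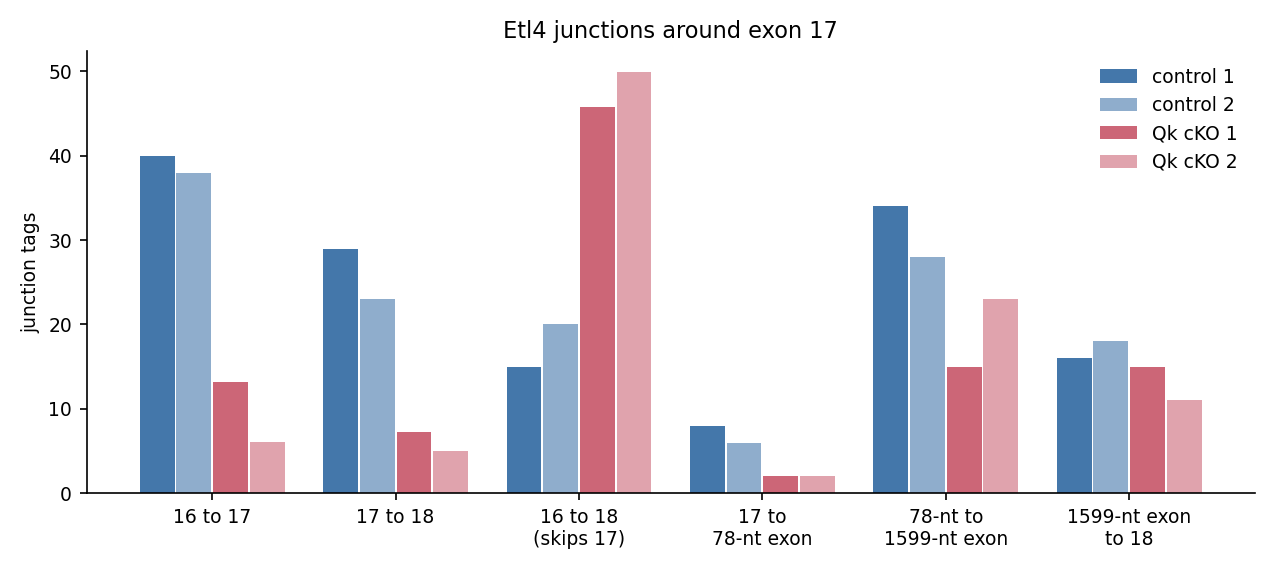
Tags on each junction around *Etl4* exon 17 (y axis, tags) in the 2 control (blue) and 2 *Qk cKO* (red) samples. The junction that skips exon 17 had 45.8 and 49.9 tags in *Qk cKO* against 15 and 20 in control, while the junctions into and out of exon 17 had fewer tags in *Qk cKO*.

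The paralog *Srcin1* had no event that could be tested. Its 2 annotated events had coverage of at most 8.03 tags, below the minimum of 20, coverage being the smallest sum over a group or an isoform in the table of junction tags. Of the 40 residues of Etl4 exon 17, 10 aligned with Srcin1 and 3 were identical, against 33 aligned and 14 identical among the 40 residues before it and 38 aligned and 5 identical among the 40 after it.

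*Ralgapa1* exon 40 lies at chr12:55612073-55612103 on the minus strand. It is 31 nt long, is the second-to-last of 41 exons, and shifts the reading frame. It was less included in *Qk cKO*, and its inclusion decides the predicted C terminus. Both annotated ends are shown from the last 15 bases of exon 39, with the stop codon in capitals:
Ralgapa1 with exon 40: tccctgctgacgcagatcatTAA
Ralgapa1 without exon 40: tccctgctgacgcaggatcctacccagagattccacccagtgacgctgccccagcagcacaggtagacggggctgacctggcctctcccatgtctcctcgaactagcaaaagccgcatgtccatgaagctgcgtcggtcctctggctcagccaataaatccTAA

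With exon 40 the stop codon comes after 5 coding bases of the exon, and the protein has 2035 residues, of which the last 2 are its own. Without it, translation runs into the last exon (chr12:55602896-55604268), and the protein of 2082 residues ends in 49 residues of its own. Both forms share 2033 residues. Of the 49 residues, 8 aligned with the Ralgapa2 protein and 5 were identical, while the 2 residues of the form with exon 40 did not align.

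Exon 40 was included at 76.4% (64.8 to 85.1%) and 87.0% (77.7 to 92.8%) in control. In *Qk cKO* it was included at 53.2% (41.4 to 64.6%) and 38.5% (28.6 to 49.6%). Both *Qk cKO* samples lay below both controls, again a description, since this difference chose the gene. Skipping tags numbered 15.2 and 10 in control and 31.6 and 48.6 in *Qk cKO*, and tags into exon 40 numbered 49.8 and 70 against 37.4 and 32.4. ΔI was 0.369, and 0.311 without control 2. The form with the longer C terminus thus made up the larger share in the second *Qk cKO* sample only, and close to equal shares were seen in the first.

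The other tested *Ralgapa1* event is a cassette exon of 141 nt, at chr12:55735034-55735174, which keeps the frame. It was included at 48.9% and 67.4% in control and 56.1% and 57.4% in *Qk cKO* (ΔI 0.0145). The *Qk cKO* values fell between the controls. *Ralgapa2* has no annotated alternative event in the files and gave no splicing measurement.

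*Sbf1* and *Sbf2* are the pair in which an alternative exon at the same place could be measured in both genes. *Sbf1* exon 29 (chr15:89295952-89296029, minus strand, 78 nt) and *Sbf2* exon 29 (chr7:110341290-110341364, minus strand, 75 nt) have the same number in transcripts of 41 exons each. Both start at the same codon position, keep the frame and lie between exons of 138 and 182 nt in *Sbf1* and 141 and 185 nt in *Sbf2*. The sequences are set out for comparison, with bases that were identical in their alignment in capitals:
Sbf1 exon 29: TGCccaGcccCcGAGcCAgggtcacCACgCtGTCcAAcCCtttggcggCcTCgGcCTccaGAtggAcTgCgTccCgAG
Sbf2 exon 29: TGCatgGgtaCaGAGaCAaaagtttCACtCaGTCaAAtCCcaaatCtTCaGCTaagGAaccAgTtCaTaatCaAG

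In their bases, the alternative exons were less alike than the exons beside them. They shared 36 of 74 aligned bases (48.6%), against 64.6% for the exon before and 58.5% for the exon after. Of 24 aligned residues in exon 29, 7 were identical (29.2%). This was close to the 14 of 44 (31.8%) before and below the 27 of 58 (46.6%) after.

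The exons differed between the groups in opposite directions. *Sbf1* exon 29 was included at 47.2% (39.2 to 55.3%) and 47.0% (39.2 to 55.0%) in control and at 11.9% (7.99 to 17.5%) and 10.7% (6.81 to 16.3%) in *Qk cKO*. The replicates differed by less than 2 percentage points within each group, and ΔI was 0.358, or 0.359 without control 2. There were 75.5 and 79.5 skipping tags in control and 159 and 147 in *Qk cKO*, and 70.5 and 81.5 tags into exon 29 against 14.6 and 19.03. Of the 4 exons, this had the most tags.

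*Sbf2* exon 29 was included at 74.4% (67.8 to 80.1%) and 78.5% (72.5 to 83.5%) in control and at 85.8% (80.9 to 89.5%) and 85.4% (80.6 to 89.1%) in *Qk cKO*. It was thus already the major form in control, and both *Qk cKO* samples lay above both controls. ΔI was -0.0897, and -0.111 without control 2. By Fisher's exact test on tags summed over the replicates, the increase was called (p = 0.00122, Benjamini-Hochberg FDR 0.0254 within cassette exons), calls being made at p below 0.01 and FDR below 0.1. Fisher's test takes tags as independent. The edgeR test of the same event, which includes the spread between samples, gave an adjusted p of 0.378 and did not call it. The increase was also not called by Fisher's exact test without control 1 (FDR 0.180) or without *Qk cKO* 1 (FDR 0.123).

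*Sbf2* also has a cassette exon of 96 nt, between exons 28 and 29 (chr7:110347887-110347982). Its skipping is counted on the junction of exons 28 and 29, whose tags also count as inclusion of exon 29. These events are therefore not separate. The 96-nt exon was included at 14.1% and 10.1% in control and at 18.4% and 13.9% in *Qk cKO*, with overlapping groups, and the difference was not called (ΔI -0.0431, Fisher's exact test, FDR 0.737). An alternative 3′ splice site near the start of *Sbf2* was not called either (ΔI 0.0336, FDR 0.879). In *Sbf1*, the other 2 tested events had ΔI of -0.0135 and -0.0303. A cassette exon among them was included at 0.811% to 5.43% over the 4 samples, and a retained intron at 1.82% and 4.35% in control and 4.59% and 7.86% in *Qk cKO*.

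*Ubap2l* exon 28 (chr3:90001818-90001868, minus strand, 51 nt) differs from the other exons in that it lies before 2 alternative last exons. It encodes 17 residues and keeps the frame. The proximal last exon spans chr3:90000288-90000991 and the distal last exon chr3:90000140-90000253, and each carries its own stop codon. The exon and both coding ends are shown because the difference depended on which end was counted. In the ends, the stop codon is in capitals:
Ubap2l exon 28: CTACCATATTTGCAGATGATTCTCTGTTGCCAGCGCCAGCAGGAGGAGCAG
Ubap2l end in the distal last exon: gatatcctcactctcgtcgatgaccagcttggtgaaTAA
Ubap2l end in the proximal last exon: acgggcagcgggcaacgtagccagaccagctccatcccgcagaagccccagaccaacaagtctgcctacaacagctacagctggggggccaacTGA

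The proximal end encodes 31 residues, all of which aligned with the C terminus of Ubap2, 15 of them identical. The distal end encodes 12 residues, of which 1 was identical to Ubap2. All 17 residues of exon 28 aligned with Ubap2 and 3 were identical, against 27 of the 40 residues before it. That alignment used the form with exon 28 and the distal end, which lacks the proximal end. In it, exon 28 was set against residues of the last exon of Ubap2. The 17 aligned residues therefore do not show a counterpart of exon 28 in Ubap2.

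The event that chose the gene counts skipping from exon 27 to the distal last exon. By it, exon 28 was included at 18.3% (8.45 to 35.2%) and 41.9% (25.6 to 60.2%) in control and at 77.3% (54.1 to 90.8%) and 71.1% (47.6 to 87.0%) in *Qk cKO*. ΔI was -0.448, and -0.559 without control 2 but -0.324 without control 1. Coverage was 50 tags, the least that the choice allowed, and the intervals are wide. With skipping counted to the proximal last exon, the same exon was included at 4.17% and 12.7% in control and 11.3% and 9.78% in *Qk cKO* (ΔI -0.0259), and the groups overlapped.

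These events share the junction of exons 27 and 28, with 9.21 and 19.1 tags in control and 22.3 and 20.6 in *Qk cKO*. The junctions that end the mRNA separated the 2 results. From exon 27 straight to the distal last exon there were 25 and 16 tags in control and 4 and 5 in *Qk cKO*. From exon 28 to the distal last exon there were 2 and 4 tags in control and 5 and 4 in *Qk cKO*. The tags from exon 27 to the distal end were thus those that were fewer.

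From exon 27 to the proximal last exon there were 166 and 121 tags in control and 144 in each *Qk cKO* sample, and from exon 28 to it 5.21 and 16.1 against 14.3 and 10.6. The distal last exon therefore took 13.6% (9.54 to 19.1%) and 12.7% (8.40 to 18.9%) of the tags into either end in control. It took 5.39% (2.86 to 9.92%) and 5.49% (2.91 to 10.1%) in *Qk cKO*. Both *Qk cKO* samples lay below both controls. Over both ends together, exon 28 was included at 4.12% and 12.5% in control and 12.3% and 10.6% in *Qk cKO*, so the groups overlapped. These 2 shares were set after the data were seen and come from the same libraries as the choice. Over both ends, exon 28 was thus a minor exon in all 4 samples. Of the tags into the distal last exon alone, those from exon 28 were 7.41% and 20% in control and 55.6% and 44.4% in *Qk cKO*. This share rests on 27 and 20 tags in control and 9 in each *Qk cKO* sample. It too comes from the same libraries as the choice. The large ΔI of the chosen event came with fewer tags on the distal last exon.

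**Figure D3:**
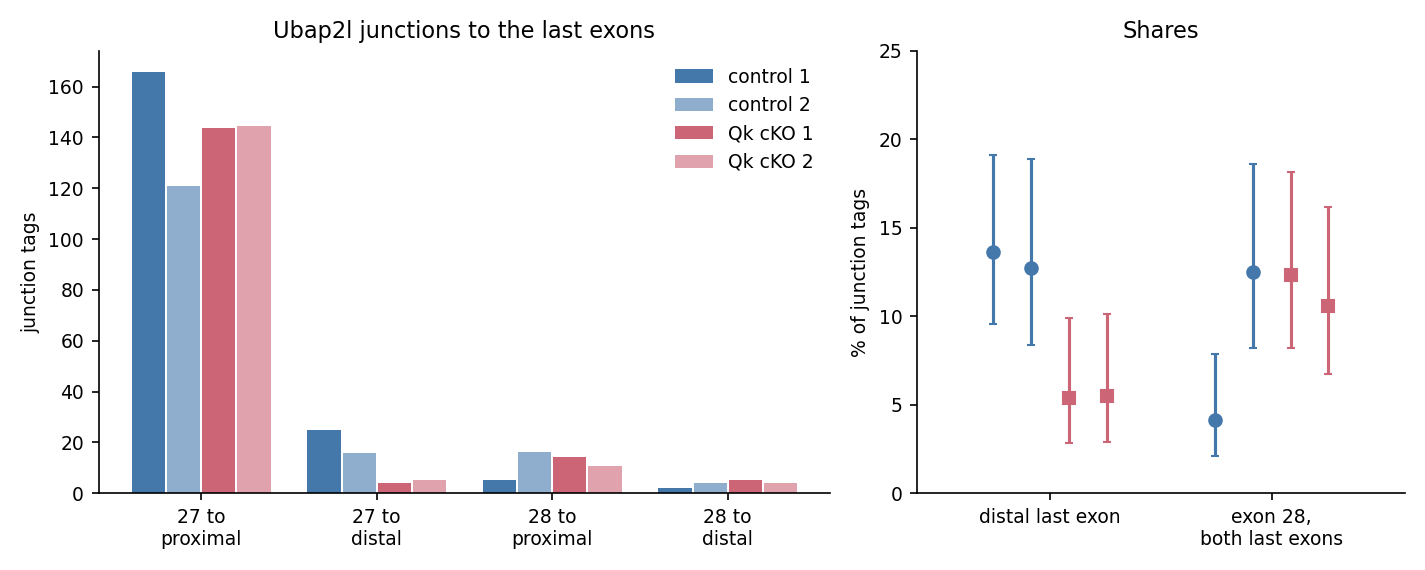
Left, tags on each junction into the proximal and distal last exons of *Ubap2l* (y axis, tags) in the 2 control (blue) and 2 *Qk cKO* (red) samples. Right, the share of tags into the distal last exon and the inclusion of exon 28 over both last exons, in percent with 95% Wilson intervals, circles being control and squares *Qk cKO*: the distal share was 13.6% and 12.7% against 5.39% and 5.49%, while the inclusion of exon 28 overlapped.

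A form of exon 28 with another start, below the coverage minimum, was included at 5.66% and 11.1% in control and 38.6% and 28.6% in *Qk cKO* against the same distal last exon. Its skipping junction and its junction to the distal last exon are those of the chosen event. It is therefore not a separate result. The other 7 tested *Ubap2l* events had ΔI between -0.0509 and 0.0362, among them 2 overlapping forms of 1 cassette exon at 34.8% to 45.6% inclusion over the 4 samples. The lincRNA gene *Gm19710*, on the opposite strand, overlaps 82 of the 114 bases of the distal last exon and parts of other *Ubap2l* exons, and the libraries carry no strand.

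The place in *Ubap2* that aligned with the start of *Ubap2l* exon 28 is its last intron, of 87 nt (chr4:41195247-41195333), between exons of 192 and 931 nt. Retention of this intron was 7.91% and 7.69% in control and 3.03% and 16.3% in *Qk cKO*, with the *Qk cKO* values on either side of the controls (ΔI -0.0210, Fisher's exact test, FDR 0.755). The *Ubap2* event with the most tags, an alternative 3′ splice site, used its proximal junction at 87.6% and 85.9% in control and 91.8% and 90.6% in *Qk cKO*. Although the groups did not overlap, this difference was not called (ΔI -0.0442, FDR 0.316). A cassette exon of *Ubap2* was included at 1.11% to 7.32% over the 4 samples and was not called (ΔI -0.00759, FDR 0.988).

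Of the 6 paralog events that were covered well enough to test, 1 was called, that of *Sbf2* exon 29, against 7.50% of all 11500 tested events. The cassette exons of *Sbf2* among the 6 share a junction and are not separate. By the edgeR test, 0 of the 6 were called, against 0.557% of all events, and the only event among them at an unadjusted p below 0.05 was *Sbf2* exon 29. In 2 of the 6 the groups did not overlap, against 37.9% of all tested events, a share near that of all events. The median absolute ΔI of the 6 events was 0.0383, against 0.0256 over all events. The next smaller exons, at coverage of at least 50 with groups that did not overlap, were in *Kif16b* (ΔI 0.329, next to *Sbf1* at 0.358) and *Erbb2ip* (ΔI -0.439, next to *Ubap2l* at -0.448). Larger differences also lay outside the 4 genes. Under these limits *Etl4*, *Ralgapa1* and *Sbf1* ranked 1, 3 and 4 among cassette exons more included in control. *Ubap2l* ranked 2 among those more included in *Qk cKO*.

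**Figure D4:**
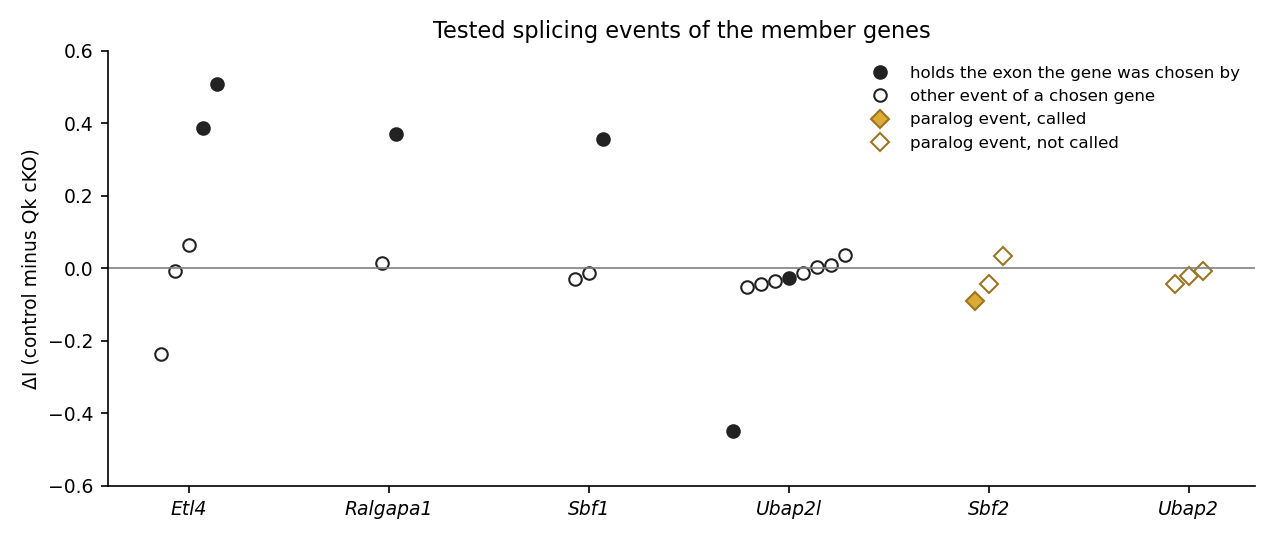
ΔI (inclusion in control minus *Qk cKO*) of each tested event of 6 of the genes, *Srcin1* and *Ralgapa2* having none. Filled circles hold the exon that chose the gene, open circles are other events of these genes, and diamonds are events of the paralogs, filled where called by Fisher's exact test. The paralog events lay between -0.0897 and 0.0336.

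Of the 8 genes, *Ralgapa1* alone was called for its mRNA level. In control, the mean level was highest for *Ubap2* with 51.6 ± 2.11 RPKM (SD, n = 2). It was followed by *Sbf2* with 43.3 ± 1.35, *Ubap2l* with 40.3 ± 0.754, *Sbf1* with 36.9 ± 2.96, *Srcin1* with 17.3 ± 1.22, *Ralgapa1* with 12.0 ± 0.0195, *Ralgapa2* with 5.14 ± 0.0327 and *Etl4* with 4.09 ± 0.357. The order was the same in *Qk cKO*. The 2 samples of neighbours in this order did not overlap in either group, but *Srcin1* (14.7 and 15.7 RPKM) and *Ralgapa1* (13.5 and 14.6 RPKM) came close in *Qk cKO*.

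*Ralgapa1* was at 11.98 and 11.95 RPKM in control and at 13.5 and 14.6 RPKM in *Qk cKO*. Both *Qk cKO* samples lay above both controls, a 1.19-fold increase (95% interval 1.10 to 1.28, log2 fold change 0.25, SE 0.0539, adjusted p = 0.0615 by edgeR's quasi-likelihood test). That is 1 of 8 genes called, against 0.584% of the 18834 genes with at least 1 tag. The call was near the threshold. With DESeq2 the FDR was 0.0767, but with edgeR's exact test it was 0.133 and with a filter on low counts 0.260. Without control 2 the log2 fold change was 0.24 and the FDR 0.920, and no gene at all was called in that fit. Other genes' exons cover 4.83% of the exon bases of *Ralgapa1*, a pseudogene on the opposite strand among them, and their tags cannot be told apart from its own.

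*Srcin1* was lower in both *Qk cKO* samples, at 14.7 and 15.7 RPKM against 16.4 and 18.1 in control. Its log2 fold change was -0.17 (SE 0.0599, 95% interval -0.30 to -0.05). It did not pass the call, with an adjusted p of 0.323 by edgeR. Without control 2, the log2 fold change was -0.11, with an adjusted p of 0.920 by edgeR.

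The other 6 genes had log2 fold changes between -0.09 and 0.08 and FDR of 0.782 or more. *Etl4* stood at 3.84 and 4.35 RPKM in control and 4.12 and 4.29 in *Qk cKO*, so the change in exon 17 came without a called change in level (95% interval of the log2 fold change -0.13 to 0.23). *Sbf1* stood at 34.8 and 38.98 RPKM in control and 34.7 and 34.0 in *Qk cKO* (-0.22 to 0.05). *Ubap2l* was nearly level, at 39.8 and 40.8 RPKM in control and 40.05 and 40.2 in *Qk cKO* (-0.15 to 0.16). For these 3 genes the intervals lie within a 1.2-fold change in either direction.

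Among the paralogs, *Ralgapa2* was at 5.11 and 5.16 RPKM in control and 5.02 and 5.44 in *Qk cKO*. *Sbf2* was at 44.2 and 42.3 against 44.7 and 46.1, and *Ubap2* at 50.1 and 53.1 against 48.7 and 51.8. None of these was called. The groups did not overlap for 4 of the 8 genes (*Srcin1*, *Ralgapa1*, *Sbf1* and *Sbf2*), against 36.9% of all genes tested.

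**Figure D5:**
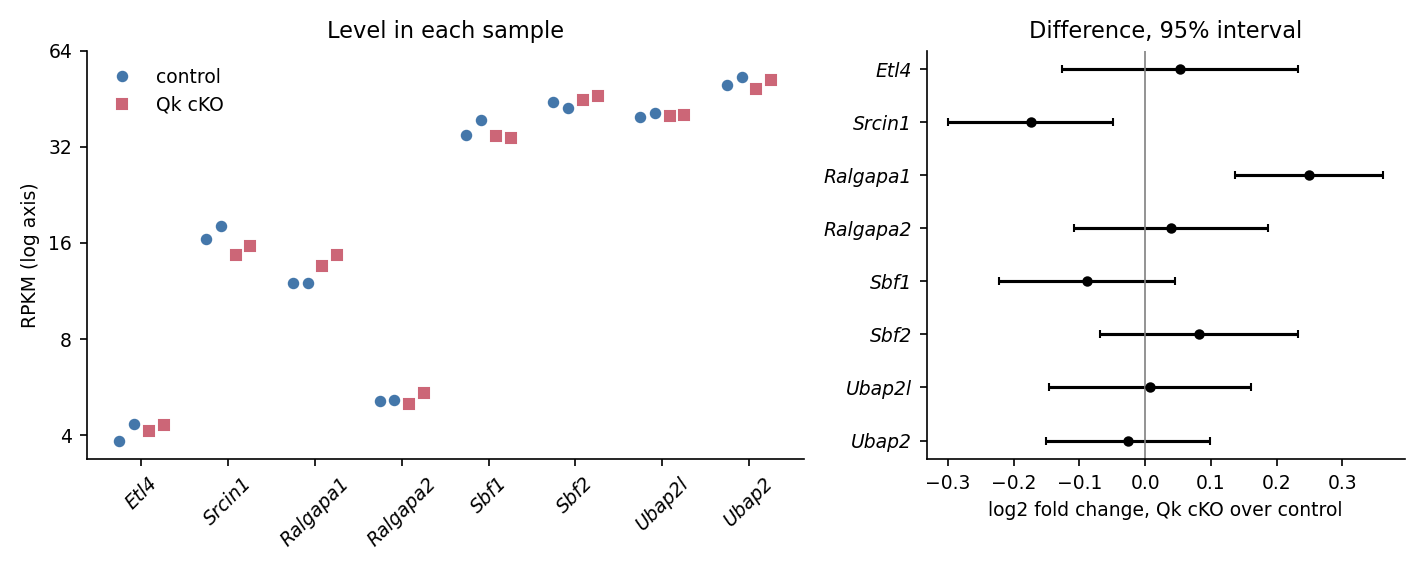
Left, the level of each of the 8 genes in each sample (RPKM, log axis), circles being control and squares *Qk cKO*. Right, the log2 fold change of *Qk cKO* over control with its 95% interval from edgeR: *Ralgapa1* (0.14 to 0.36) alone passed the call, and *Srcin1* (-0.30 to -0.05) did not.

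The balance within a pair was compared through the ratio of RPKM in each sample. *Ralgapa1* was at 2.34 and 2.32 times *Ralgapa2* in control and at 2.70 and 2.69 times in *Qk cKO*. *Etl4* was at 0.234 and 0.240 of *Srcin1* in control and 0.280 and 0.274 in *Qk cKO*. For these pairs the chosen gene thus took a larger share in both *Qk cKO* samples. *Sbf1* was at 0.787 and 0.921 of *Sbf2* in control and 0.776 and 0.739 in *Qk cKO*, and *Ubap2l* at 0.793 and 0.769 of *Ubap2* against 0.823 and 0.776. With 2 samples a group, a two-sided exact permutation test cannot give less than 0.333, which 3 of the 4 ratios reached (0.444 after Benjamini-Hochberg adjustment over the 4). The ratio of *Ubap2l* to *Ubap2*, whose groups overlapped, gave an exact permutation p of 0.667.

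Genes that work with these 8 were not called for their level. None of 12 genes of the Ral GTPase network (among them *Ralgapb*, the shared regulatory subunit of RalGAP, and *Rala* and *Ralb*), 12 other myotubularins, 12 stress granule genes or 9 genes for partners of Srcin1 was called by edgeR or by DESeq2, in either direction. At an unadjusted p below 0.05 by edgeR there were 0, 0, 2 and 1 genes in these lists, against 8.76% of all genes tested, of which 0.584% were called. The median log2 fold changes of these lists were 0.03, 0.07, 0.06 and -0.05, against -0.00253 over all genes tested.

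Among their tested splicing events, the number called was 0 of 18 in the Ral network, 0 of 10 in the myotubularins, 0 of 13 in the Srcin1 partners and 2 of 48 in the stress granule genes by Fisher's exact test, against 7.50% of all tested events. At an unadjusted p below 0.05 by Fisher's exact test there were 4, 1, 2 and 8 events in the same order, against 16.8% of all tested events. *Tia1*, which encodes an RNA-binding protein of stress granules, kept an intron at 60.2% and 66.0% in control and at 81.7% and 75.5% in *Qk cKO* (ΔI -0.156, p = 1.02e-06, FDR 0.000392, Fisher's exact test). Both *Qk cKO* samples lay above both controls. *G3bp2*, which encodes a core stress granule protein that binds Ubap2l, included a cassette exon at 30.6% and 29.3% in control and at 24.97% and 28.4% in *Qk cKO* (ΔI 0.0345, p = 0.00379, FDR 0.0526, Fisher's exact test). The edgeR interaction test called neither, nor any other of these events, and 2 events, both in stress granule genes, had an unadjusted p below 0.05 by it, against 7.17% of all tested events.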

How the data were processed

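RNA from E14.5 mouse cortex, 2 control and 2 *Qk cKO* samples, was made into poly-A-selected, unstranded libraries (TruSeq v2). The authors used OLego to align the paired reads to the mouse genome, mm10, and to known exon junctions, and Quantas to quantify genes and splicing events. Versions were not given in the sources used here. They deposited, per sample, an estimated count of tags and the RPKM of each gene, and estimated counts of isoform and junction tags of each event. The counts need not be whole and were rounded for tests. Depth was 37942046 to 42994832 tags per sample.

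Levels were tested with edgeR 4.0.16 (TMM, quasi-likelihood, genes with at least 1 tag). Events with coverage of at least 20 tags were tested with Fisher's exact test on isoform tags summed over replicates, adjusted by the Benjamini-Hochberg method within event type, with an edgeR interaction test beside it. Both called changes at p below 0.01 and FDR below 0.1. Alternatives were other scalings, DESeq2 1.42.0, edgeR's exact test, filters, coverage limits, junction tags only, a replicate block and each sample left out. The code was tested on simulated data. Wilson intervals used the mean of the inclusion junctions plus skipping tags and cover counting error only.

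Exons, sequences and proteins came from GENCODE M21 (GRCm38) and were aligned with Biopython 1.88. No genome sequence was used, so introns were not searched for motifs. The 8 genes and the partner and marker lists were chosen with earlier results of these data known. Of each gene list only called genes or events are named. Events named are each chosen gene's cassette exon with the largest difference at coverage of at least 50, events sharing it, and each paralog's tested events. *Map2* and *Hbb-bt* were not analysed here.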

Additional observations from a re-analysis of the deposited data

How the results depend on the processing

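The number of genes called was 110, and it was 57 with edgeR's exact test, 11 with a filter on low counts, 192 with the replicate block and 0 to 428 when 1 sample was left out, with 11 without control 1, 0 without control 2, 428 without *Qk cKO* 1 and 68 without *Qk cKO* 2. The remaining sample of a group is then assumed to vary like the other group. *Ralgapa1* had a log2 fold change of 0.20 to 0.29 throughout and was not called by the exact test, by the filter, or without control 1 (FDR 0.477), control 2 or *Qk cKO* 2 (FDR 0.433). None of the other 7 genes was called under any alternative. Splicing calls numbered 862 by Fisher's exact test, 488 to 722 with 1 sample left out (488 without control 1) and 64 by the edgeR interaction test. Called paralog events numbered 1, and 0 to 1 with 1 sample left out and 0 by the interaction test. ΔI of *Sbf1* exon 29 was 0.424 from all isoform tags, 0.352 to 0.364 with 1 sample left out, and 0.396 and 0.317 from the upstream or downstream inclusion junction alone, the last 2 being chosen after the data were seen. ΔI of *Ubap2l* exon 28 was -0.308 from all isoform tags, -0.324 to -0.559 with 1 sample left out and -0.0365 with both last exons together, also chosen after the data were seen. ΔI of *Sbf2* exon 29 was -0.0578 from all isoform tags and -0.0704 to -0.111 with 1 sample left out. The cause of these shifts was not tested. No inclusion difference of the 5 exons changed sign.

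Replicate numbers are shared between the groups, but 2 pairs do not show that they mark a shared litter or day. The difference between control 1 and 2 correlated with that between *Qk cKO* 1 and 2 at 0.384 over 13326 genes and -0.0140 over 11496 events. With the replicate block, ΔI was 0.509 for *Etl4* exon 17, 0.359 for *Ralgapa1* exon 40, 0.358 for *Sbf1* exon 29, -0.441 for *Ubap2l* exon 28 and -0.0909 for *Sbf2* exon 29. With 1 sample of each group per block, these values equal the plain difference of the group means. They cannot show an effect of pairing. The Cochran-Mantel-Haenszel test, which used the same blocks, called 739 events, the *Sbf2* exon among them. *Ralgapa1* kept its call under the block (FDR 0.0712). With 2 samples a group and 50 tags behind the *Ubap2l* event, small differences were not detectable.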
